A study of Drosophila melanogaster with 8 samples.

Results

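At 238 places on the chromosome arms, a Bicoid (Bcd) peak was called in both zelda mutant and wild-type Drosophila melanogaster embryos. The points of highest signal in the 2 genotypes lay more than 200 bp apart. These places were chosen from the deposited peak lists themselves. A mutant peak had to overlap exactly 1 wild-type peak by at least 1 bp, with the reverse also true. This gave 1187 such 1-to-1 pairs on arms 2L, 2R, 3L, 3R, 4 and X, and 238 of them (20.1%) had summits further apart than the limit. The whole series held 2650 mutant and 3891 wild-type peaks, of which 1870 and 2827 lay on the arms. The positions of both summits chose the pairs, so all values below describe the pairs and none is tested.

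Bcd is a homeodomain transcription factor that forms a gradient from the anterior pole of the egg and activates genes for the head and trunk. It often binds stretches of DNA that hold several of its sites, and such stretches act as enhancers. Zelda is a zinc finger factor supplied by the mother and present in all nuclei of the early embryo. It is known for making chromatin accessible to other factors before the zygotic genome is broadly active. The comparison asks where Bcd binds when Zelda is missing, and for these pairs, where within a bound region its highest signal lies.

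The series used chromatin immunoprecipitation followed by sequencing (ChIP-seq) on whole embryos 1 to 3 h after egg laying. The 8 samples were zelda mutant Bcd ChIP, zelda mutant input, wild-type Bcd ChIP and wild-type input, with 2 replicates each. The labels name no zelda allele and do not say how the mutant embryos were obtained. The ChIP used a purified rabbit antiserum against full-length Bcd, and the inputs had no antibody. Each genotype was represented by 1 deposited peak list, so there is no spread between replicates, and intervals below cover counting error only. After removal of duplicates the mutant ChIP held 10060479 tags and the wild-type ChIP 39154546, a ratio of 3.89 for wild type over mutant. A deeper library gives longer peaks at a fixed p cutoff. Whole embryos were used, so binding in fewer nuclei and weaker binding per nucleus cannot be told apart. Positions are 1-based on the build dm3. Genes and sequences are not given for these positions, since the only gene table at hand follows a later build and a dm3 genome was not used here.

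The distance between the mutant and the wild-type summit had a median of 797.5 bp (interquartile range 432.75 to 1299.5 bp). It ran from 202 to 8195 bp. The distance exceeded 500 bp in 169 of the 238 pairs, 1000 bp in 90 and 2000 bp in 33. Set against the length of the wild-type peak, the median shift was 27.1% of that length. The other 949 pairs had a median distance of 33 bp (13 to 63 bp), so most 1-to-1 pairs lay far below the limit and the shifted pairs formed a long tail. Near the limit the pairs were continuous. The nearest pairs above it were 202, 204 and 205 bp apart, at 3R from 11301397 to 11302875, at 3R from 1056642 to 1058884 and at X from 3880827 to 3886833 in wild type. The nearest pairs below it were 199, 196 and 196 bp apart, at 3R from 819525 to 821214, at 2L from 13164838 to 13166547 and at 3R from 17201639 to 17203738.

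**Figure D1:**
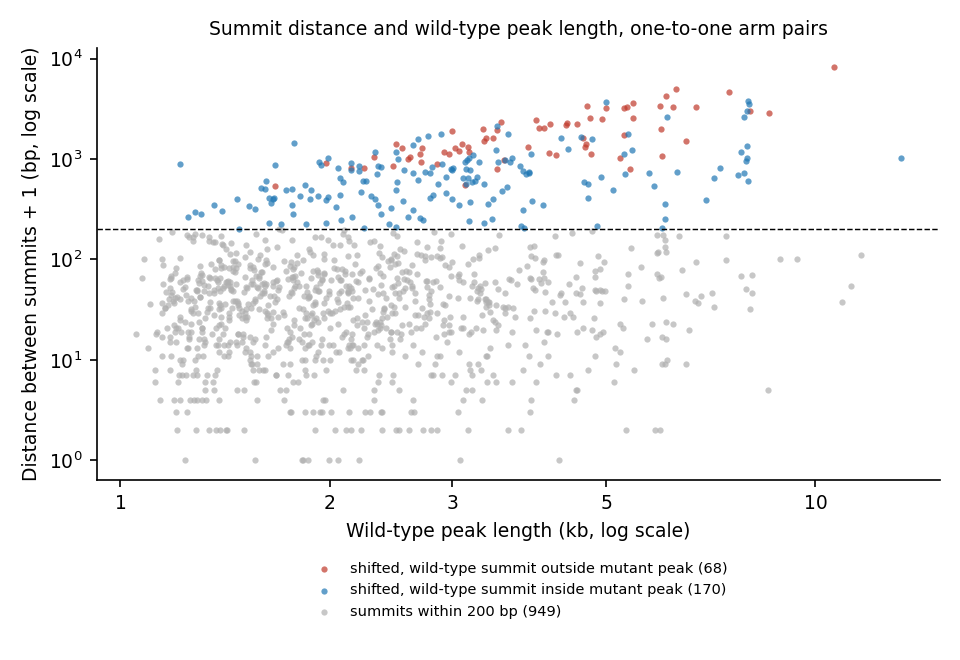
Distance between the mutant and the wild-type summit (bp plus 1, log scale) against wild-type peak length (kb, log scale), 1 point per pair, with the 200 bp limit dashed. The 68 shifted pairs whose wild-type summit lay outside the mutant peak are at the long end, from 542 bp up, and the 949 pairs within the limit spread over all lengths.

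In most shifted pairs the mutant peak still covered the wild-type summit. The wild-type summit lay inside the mutant peak in 170 of 238 pairs, or 71.4% (Wilson 95% interval 65.4 to 76.8), and outside it in 68 (28.6%). Over all 1187 pairs it lay outside in 5.73%, and each of these was a shifted pair. This contrast follows largely from the rule. Pairs within the limit had summits at most 199 bp apart, and their mutant summits lay at least 195 bp from the nearest mutant edge. The mutant summit lay inside the wild-type peak in 236 pairs (99.2%) and outside it in 2, against 0.168% over all pairs. There was no pair in which neither summit lay inside the other peak. In 168 pairs both summits lay inside both peaks. These 168 are places where 1 bound region was called in each genotype with 2 different highest points. The 68 are places where the mutant call did not reach the wild-type summit, and in 61 of them it lay wholly inside the wild-type peak.

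The 68 pairs without cover at the wild-type summit had longer wild-type peaks and weaker mutant calls than the other 170. The split itself favours short mutant peaks and long shifts, so these contrasts are not independent of it. Their mutant peaks had a median length of 1294 bp and their wild-type peaks one of 4034.5 bp. For the 170 pairs with cover, the medians were 2003 bp in the mutant and 2894 bp in wild type. The wild-type summit of the 68 lay a median of 775.5 bp beyond the nearest mutant edge (interquartile range 513 to 1250.25 bp), and the least distance was 23 bp. The median shift was 1518 bp in the 68 and 606.5 bp in the 170, a difference that follows in part from geometry, since a longer shift leaves the mutant peak more readily. The mutant score, which is −10 times the log10 of the p-value from MACS and was at least 50 in every peak by the cutoff, had a median of 77.47 in the 68 and 170.315 in the 170. The wild-type scores went the other way, with medians of 368.845 in the 68 and 230.105 in the 170. None of the 68 mutant peaks had a false discovery rate (FDR) of at most 5%. The lowest mutant FDR among them was 7.49%, while 42 of the 68 wild-type partners had an FDR of at most 5%. Among the 170, 30 mutant peaks and 82 wild-type peaks had an FDR of at most 5%. Over all 1187 pairs 15.2% of mutant peaks and 41.5% of wild-type peaks did. The wild-type share was 61.8% in the 68 and 48.2% in the 170.

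The longest shift was seen at 2L, where the wild-type peak from 3070571 to 3081197 spanned 10627 bp. The mutant peak there ran from 3080130 to 3080914, only 785 bp, and its summit lay 8195 bp away from the wild-type one. It held 91 tags (exact Poisson 95% interval 73 to 112) with a fold enrichment of 4.08, against 6525 tags (6368 to 6685) and a fold of 9.55 in wild type. Fold enrichment is the authors' own ratio of the ChIP signal at a peak to a background level derived from the control. The mutant call thus sat near one end of a wide wild-type region, and its score of 61.54 was close to the cutoff, against 327.06 for the wild-type peak in the deeper list.

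The next pairs by length of shift took 2 forms. In the first, a short mutant peak lay at the far end of a long wild-type one. At 3R the mutant peak from 27903861 to 27904762 held 106 tags and had a fold of 3.47, within a wild-type peak from 27898744 to 27905044 with 3726 tags and a fold of 5.16. The summits were 4997 bp apart. At 2L the mutant peak at 22418503 to 22420431 had a 3.16-fold enrichment and the wild-type peak from 22413006 to 22420512 one of 4.43, with summits 4658 bp apart. At 3L the mutant peak at 11559980 to 11561638 had a 3.36-fold enrichment and the wild-type peak from 11559713 to 11565807 one of 4.06, with summits 4234 bp apart. The X pair, from 19032598 to 19034199 in the mutant and from 19032332 to 19037804 in wild type, was of the same form, with folds of 3.16 and 4.27 and a shift of 3615 bp. In these pairs the wild-type summit had no mutant call over it.

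In the second form the mutant peak kept most of the wild-type length, and the highest point moved from one end of it to the other. The clearest was at 2L, where the mutant peak from 16349774 to 16354378 and the wild-type peak from 16349741 to 16354743 had nearly the same edges. The mutant peak was 0.920 times as long. Its summit at 16350290 lay 3677 bp below the wild-type summit at 16353967, and the folds were 2.88 in the mutant and 7.06 in wild type. Another 2L pair ran from 10594306 to 10599807 in the mutant and from 10592734 to 10600732 in wild type, with folds of 2.54 and 3.6 and a shift of 3775 bp. A 3L pair ran from 23379737 to 23384718 in the mutant and from 23378146 to 23386174 in wild type, with folds of 2.12 and 4.16 and a shift of 3564 bp. All 3 of these wild-type summits lay inside the mutant peak, and the mutant folds were below the median of 3.44 for the shifted pairs. The last 2 wild-type peaks, 7999 and 8029 bp long, resembled those of other shifted pairs in length and fold. Examples began in wild type at 2112044 on 2L (7977 bp, folds of 2.34 mutant and 4.15 wild type) and at 1824462 on X (7980 bp, 2.19 and 3.78). The sequence at these places was not examined, and why such lengths and folds recurred was not tested.

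**Figure D2:**
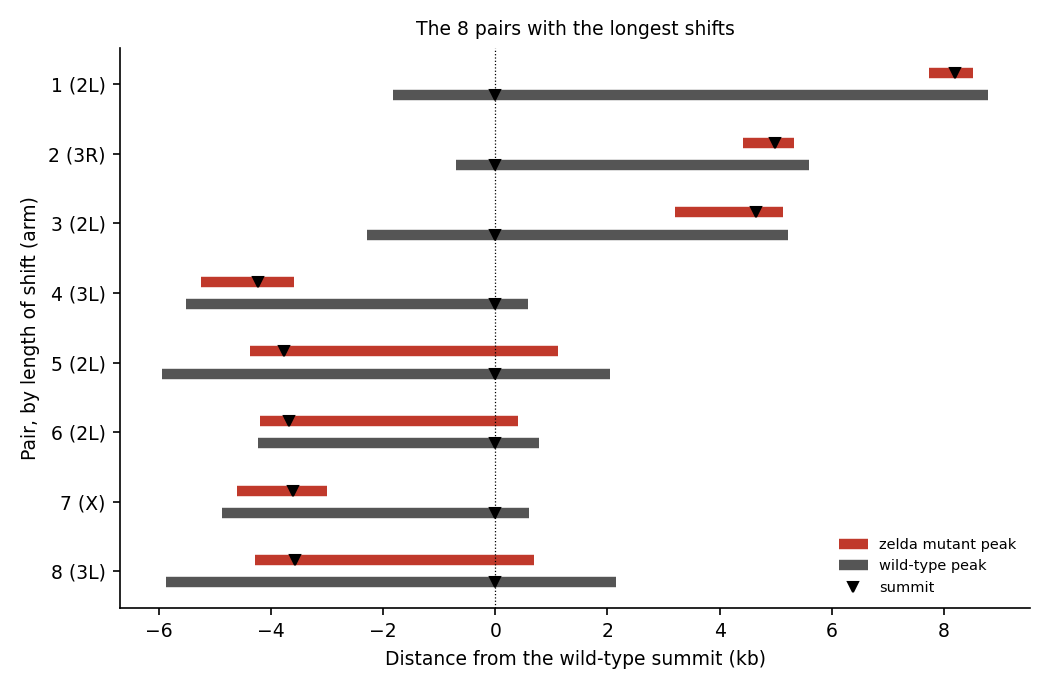
Mutant peaks (red, upper bar of each pair) and wild-type peaks (grey, lower bar) of the 8 pairs with the longest shifts, drawn to scale as distance from the wild-type summit in kb, with triangles at the summits. In 5 pairs the red bar does not reach the dotted line at the wild-type summit, and in 3 pairs it covers it.

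Not all shifted regions were weak ones. The 6 pairs with the highest mutant fold had mutant folds of 6.50 to 9.71 and shifts of 313 to 1642 bp, and in each of them the mutant peak covered the wild-type summit. The strongest was at 3L, from 20613154 to 20617496 in the mutant and from 20613073 to 20617671 in wild type. It had 1052 tags and a fold of 9.71 in the mutant, and 3735 tags and a fold of 9.86 in wild type. Its summits stood 1642 bp apart, at 20614996 in the mutant and 20616638 in wild type. The edges of this region differed by 81 bp at one end and 175 bp at the other. It is the clearest case of a region strongly enriched in both lists whose highest point differed.

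At X the mutant peak from 12643894 to 12646982 had a fold of 7.01 with 689 tags, against 4.93 with 1868 tags for the wild-type peak from 12643868 to 12647150, and the summits were 944 bp apart. At 2R the peaks starting at 18129219 in the mutant and 18129162 in wild type had folds of 6.50 and 6.14 and a shift of 741 bp. In these 2 pairs of the group the mutant had the higher fold. The other members began, in the mutant, at 12088622 on 2L (folds of 8.19 mutant and 10.98 wild type), at 7913966 on 2R (7 and 8.57) and at 6442123 on 3R (6.73 and 8.83). Their shifts were 313, 838 and 606 bp.

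The 6 pairs with the highest wild-type fold all had a lower fold in the mutant, which picking by wild-type fold favours. The gap was not particular to shifted pairs. In the highest of 4 groups by wild-type fold, the median mutant fold was 4.285 in shifted pairs and 5.365 in the others. Wild-type medians there were 8.26 and 8.27. The 6 pairs had wild-type folds of 10.10 to 10.98 and mutant folds of 2.39 to 8.19. Among the 6, the pair at 2L starting at 12088622 in the mutant and 12086830 in wild type had the highest wild-type fold. It was also among the 6 with the highest mutant fold. At X the peaks starting at 486097 in the mutant and 485993 in wild type had folds of 5.74 and 10.95, with a shift of 400 bp. At 3R the mutant peak at 12745827 to 12746889 had a 5.73-fold enrichment and the wild-type peak from 12745707 to 12748020 one of 10.61, with a shift of 1054 bp. At 2L the mutant peak at 601255 to 602504 had a 3.23-fold enrichment and the wild-type peak from 599299 to 603440 one of 10.44, with a shift of 1152 bp. In the last 2 of these pairs the wild-type summit lay outside the mutant peak. The remaining 2 started at 16746489 on 2R and 283803 on 3R in the mutant, with folds of 3.32 mutant and 10.47 wild type, and 2.39 mutant and 10.10 wild type. Their shifts were 331 and 283 bp, and their mutant scores were 86.13 and 54.13 against wild-type scores of 1401.13 and 854.82. Scores of the 2 lists are not on one scale, since the wild-type ChIP was 3.89 times as deep.

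Shifted pairs had lower fold enrichment than the other pairs in both lists. The median mutant fold was 3.44 (interquartile range 2.87 to 4.09) in the shifted pairs and 4.30 (3.57 to 5.35) in the other 949. The median wild-type fold was 5.06 (4.25 to 6.58) in the shifted pairs and 5.99 (4.98 to 7.16) in the others. Fold was higher in the mutant than in wild type in 7 of 238 shifted pairs, or 2.94% (1.43 to 5.95), against 10.3% over all pairs and 115 of 949 in the pairs within the limit. The ratio of mutant to wild-type fold was 1.04 to 1.42 in these 7. MACS scaled the lists to different depths, so the levels of fold are not a measure of change between genotypes.

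**Figure D3:**
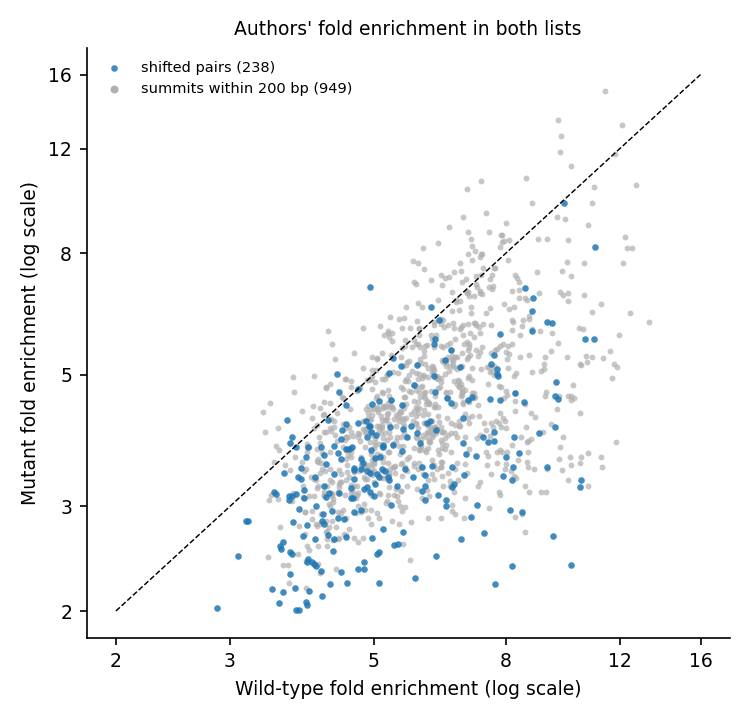
The authors' fold enrichment in the mutant against that in wild type (both log scales), 1 point per pair, with equal values dashed. The shifted pairs (blue) lie towards the lower left, with 7 of 238 above the dashed line.

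The share of pairs with a shifted summit was higher where the mutant enrichment was lower. When the 1187 pairs were ordered by mutant fold and divided into 4 groups of like size, 118 of 296 pairs (39.9%, interval 34.5 to 45.5) were shifted in the lowest group. The shares were 20.6% and 11.8% in the middle groups and 24 of 298 (8.05%, 5.47 to 11.7) in the highest. By wild-type fold the shares were 33.3%, 19.0%, 11.8% and 16.1% from lowest to highest. Ordered by tags in the mutant peak, the shares ran the other way, at 15.0%, 17.1%, 18.2% and 29.9%. The part of peak length in these shares was not tested.

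The share of shifted summits was higher for longer wild-type regions. Only 8 of 247 pairs with wild-type peaks under 1500 bp were shifted, or 3.24% (1.65 to 6.26). From 1500 bp up to 2000 bp it was 31 of 263 (11.8%), up to 3000 bp 68 of 323 (21.1%) and up to 5000 bp 83 of 246 (33.7%). Of the wild-type peaks of 5000 bp or more, 48 of 108 were shifted, or 44.4% (35.4 to 53.8). The wild-type summit lay outside the mutant peak in 0, 2, 15, 31 and 20 pairs of these classes. The limits of the classes were set after the data were seen.

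**Figure D4:**
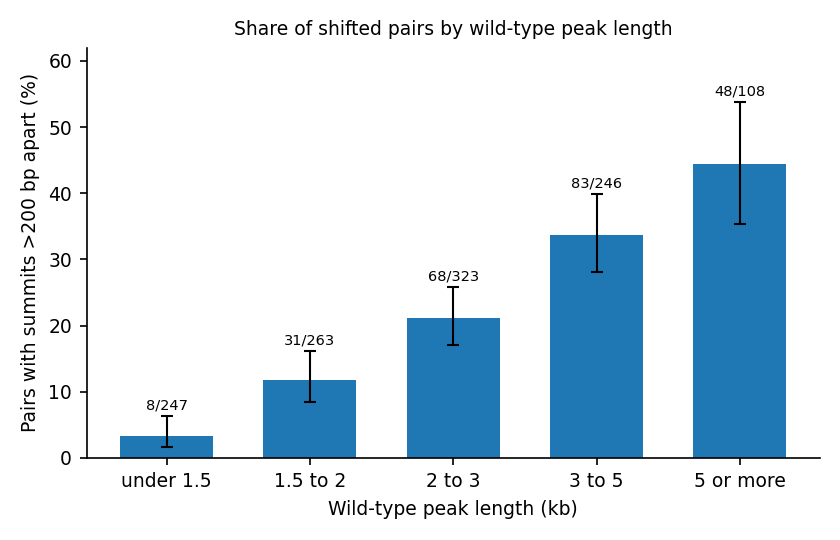
Share of 1-to-1 arm pairs with summits more than 200 bp apart (%) by class of wild-type peak length (kb), with Wilson 95% intervals and the number of shifted pairs over all pairs above each bar. The share is 3.24% in the shortest class and 44.4% in the longest.

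The lower fold of shifted pairs was also seen among regions of like length. For wild-type peaks of 2000 to 3000 bp, the median mutant fold was 3.66 in shifted pairs and 4.11 in the others, and the median wild-type fold was 4.95 and 5.99. From 3000 to 5000 bp the median mutant fold was 3.48 in shifted pairs and 4.68 in the others, and the wild-type one was 5.75 and 6.36. For peaks of 5000 bp or more the median mutant fold was 2.92 in shifted pairs and 4.07 in the others, with wild-type medians of 4.38 and 5.66. In both shorter classes the medians were lower in the shifted pairs as well, in both lists.

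Mutant peaks were shorter than their wild-type partners in 228 of 238 shifted pairs, or 95.8%, against 95.5% over all pairs. The median length was 1727.5 bp in the mutant and 3156.5 bp in wild type for shifted pairs, and 1356 and 2015 bp for the others. The median ratio of mutant to wild-type length was 0.611 (interquartile range 0.416 to 0.837) in shifted pairs and 0.780 (0.556 to 0.897) in the others. The mutant peak was under 50% of the wild-type length in 88 shifted pairs (37.0%, 31.1 to 43.3), against 22.2% over all pairs. Among regions of like length this difference had no single direction. The median ratio was 0.825 in shifted pairs and 0.874 in the others under 1500 bp, and 0.868 and 0.804 at 1500 to 2000 bp. It was 0.665 in shifted pairs and 0.667 in the others at 2000 to 3000 bp, 0.490 and 0.529 at 3000 to 5000 bp, and 0.357 and 0.261 at 5000 bp or more. The mutant peak lay wholly within the wild-type peak in 199 shifted pairs (83.6%), against 85.2% over all pairs.

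In 10 shifted pairs the mutant peak was the longer one, by 1.01 to 1.90 times. They include both pairs whose mutant summit lay outside the wild-type peak, which were picked out after their values were seen. At 2L the mutant peak from 13546582 to 13548500 had 221 tags and a fold of 3.44, against 481 tags and a fold of 5.20 for the wild-type peak from 13547315 to 13548531. Its summit lay 280 bp beyond the wild-type start. At 2R the mutant peak from 5439514 to 5442170 had 376 tags and a fold of 3.96, against 778 tags and a fold of 5.05 for the wild-type peak from 5439171 to 5440947. Its summit lay 710 bp beyond the wild-type end. The mutant FDR was 10.24% and 10.26%, and the wild-type FDR 14.62% and 11.11%, so both were uncertain calls in both lists. Such mutant values were usual, as the median mutant FDR was 9.88% in shifted pairs and 9.87% over all pairs. The wild-type medians were 3.805% and 7.11%.

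Density within the called regions was compared as tags per kb of peak. Shifted pairs had a median of 137 tags per kb in the mutant (interquartile range 121 to 155) and 520 in wild type (443 to 586). Per 1000000 filtered ChIP tags (RPKM over the called peak), this was 13.6 in the mutant and 13.3 in wild type. Each value is averaged over the span called in its own list, with a median of 1727.5 bp in the mutant and 3156.5 bp in wild type. It therefore does not compare density over the same stretch of DNA. The mutant RPKM was the higher one in 145 shifted pairs (60.9%), against 76.3% over all pairs. The median ratio of mutant to wild-type RPKM was 1.05 in shifted pairs and 1.17 in the others. The headers do not state the depth to which MACS scaled. Dividing the same deposited tags by the smaller of ChIP and control tags would lower every ratio by 1 common factor. The median would be 0.605 in shifted pairs and 0.672 in the others. That divisor matches the tags only if they had been scaled before deposit, which the headers do not state, so the level of the ratio is uncertain while the contrast between the sets of pairs is not affected by it. The ratio was 1.08 in the 170 pairs with cover at the wild-type summit and 1.00 in the 68 without. Among regions of like length the ratio was 1.08 in shifted pairs and 1.21 in the others under 1500 bp, and 1.17 in both at 1500 to 2000 bp. It was 1.09 in shifted pairs and 1.14 in the others at 2000 to 3000 bp, 1.01 and 1.13 at 3000 to 5000 bp, and 0.994 and 1.12 at 5000 bp or more.

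The edges of the mutant peak lay further inside the wild-type peak on the side that the summit had left. On that side the mutant edge lay a median of 537.5 bp inside the wild-type edge (interquartile range 157.5 to 1639.25 bp), and on the side it moved towards 179 bp (53.5 to 757.25 bp). The retreat was larger on the side left in 164 of 238 pairs, or 68.9% (62.8 to 74.4). For the 68 pairs without cover this follows largely from their geometry, and it was so in 65 of them. Among the 170 pairs with cover, 99 had the larger retreat on the side left (58.2%, 50.7 to 65.4), against 511 of 949 (53.8%, 50.7 to 57.0) in the pairs within the limit. These intervals overlap.

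Summits of shifted pairs lay further from the middle of the wild-type peak than those of the other pairs, in both genotypes. The mutant summit was a median of 540.75 bp from the centre of the wild-type peak, and the wild-type summit 513 bp. For the other pairs the medians were 225.5 bp for mutant and 217.5 bp for wild-type summits. This contrast follows in part from the rule, since summits more than 200 bp apart cannot both lie close to the centre. Wild-type peaks were also longer in the shifted pairs, with medians of 3156.5 bp against 2015 bp in the others. The mutant summit was the nearer to the centre in 124 of 238 shifted pairs (52.1%, 45.8 to 58.4), so there was no common move towards the middle. In 4 groups ordered by the distance from the wild-type summit to its own peak centre, 4.39%, 16.5%, 22.6% and 36.7% of pairs were shifted from nearest to farthest. The part of peak length in this order was not tested.

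Over all arms the mutant summit lay at the lower coordinate in 130 shifted pairs (54.6%, 48.3 to 60.8) and at the higher coordinate in 108 (45.4%), against 52% at the higher coordinate over all pairs. Arms 2L and 3L were evenly divided, with 25 and 25 pairs and 23 and 23. On 2R 21 of 44 pairs and on 3R 36 of 67 pairs went to the lower coordinate. On X it was 24 of 30, or 80.0% (62.7 to 90.5), and on X pairs within the limit it was 89 of 171, or 52.0% (44.6 to 59.4). Without X, 106 of 208 shifted pairs went to the lower coordinate, or 51.0%. The X value was singled out after the arms were seen. The direction on a chromosome has no relation to the strand of a gene.

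**Figure D5:**
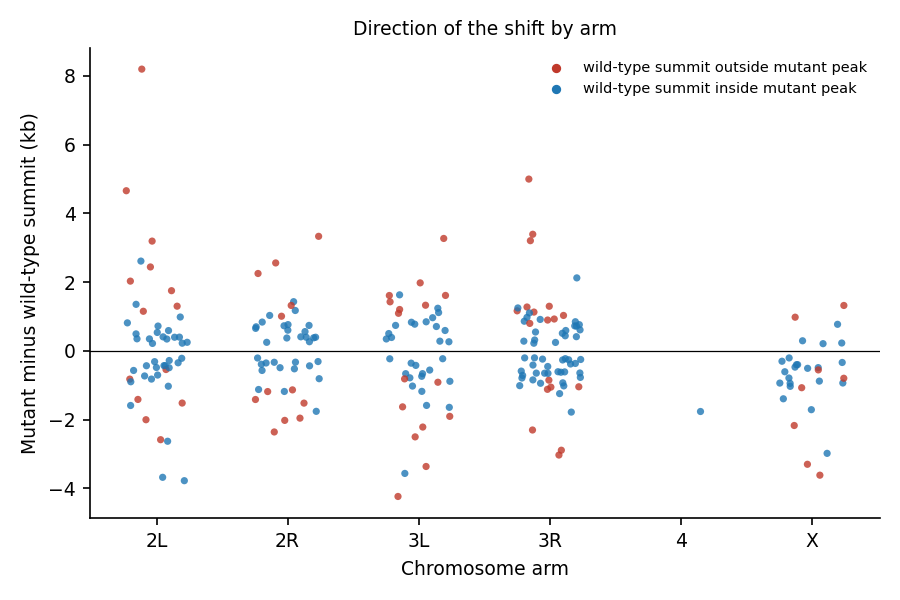
Mutant minus wild-type summit position (kb) for the 238 shifted pairs by chromosome arm, with sideways scatter only to separate points. On X 24 of 30 points lie below 0, while the 4 long autosomal arms have similar numbers on either side.

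Summits were shifted in 50 of 215 pairs on 2L (23.3%), 44 of 220 on arm 2R (20%), 46 of 223 on arm 3L (20.6%) and 67 of 319 on arm 3R (21.0%). The share was 14.9% on the X chromosome (30 of 201, interval 10.7 to 20.5), and chromosome 4 had 1 shifted pair of 9. The X interval overlapped those of the other arms. The 1 pair on chromosome 4 was shifted by 1760 bp, and its mutant peak covered the wild-type summit. On the other arms the median shift was between 725.5 bp, for 2L, and 938.5 bp, for 3L, with 735.5 bp for 2R, 771 bp for 3R and 792.5 bp for X. Pairs whose wild-type summit lay outside the mutant peak were found on each of these 5 arms, 18 of them on 3R, 16 on 3L, 14 on 2L, 12 on 2R and 8 on X.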

How the data were processed

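Bcd ChIP-seq of zelda mutant and wild-type embryos was used, as 1 deposited peak list per genotype. Per the submitters' processing notes, the tools were Bowtie2 and MACS 1.4.2 with the build dm3. Per the file headers, MACS used 1 ChIP and 1 control file, a p cutoff of 1e-05, a fragment size of 200 bp and at most 1 tag per position. The step that joined the replicates is not stated in the labels or headers. Per the file headers, the deposited values are whole tag counts per peak, a score (−10 times the log10 of the p-value), a fold enrichment (ratio over the local background from the control) and an FDR in percent. The control held 17035242 tags for the mutant and 22487837 for wild type.

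Summit positions are the start of a peak plus the deposited offset, less 1. Shares have Wilson 95% intervals and tag counts exact Poisson ones. No test was run, since both summits chose the pairs. The named pairs are the 8 longest shifts, the 6 highest folds of each list and the 3 pairs on either side of the limit; those around gene loci and motifs were not run. The members and lists were chosen with earlier results of these data known. The pairing code was tested on simulated data. Versions were matplotlib 3.10.9, pandas 2.3.3, scipy 1.17.1 and numpy 2.4.6 under Python 3.11.15.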

Additional observations from a re-analysis of the deposited data

How the results depend on the processing

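The number of shifted pairs, 238, became 156 with a reciprocal overlap of 50%, 152 with a score of at least 100 in both lists and 25 with an FDR of at most 5% for both peaks, where fewer pairs remained by construction (943, 735 and 148). Their share of the 1-to-1 pairs, 20.1%, became 28.5% with a limit of 100 bp, 14.2% with 500 bp, 16.5% with the reciprocal overlap and 16.9% with the FDR limit. The median shift of 797.5 bp became 499 bp at the 100 bp limit, 1031 bp at 500 bp, 717 bp with the reciprocal overlap and 549 bp for wild-type peaks under 3000 bp. The share of wild-type summits inside the mutant peak, 71.4%, became in the same order 79.9%, 59.8%, 89.7% and 84.1%. It was 77% with the score limit and 100% with the FDR limit, where the mutant summit also lay inside the wild-type peak in 100%. The median length ratio of 0.611 became 0.785 with the reciprocal overlap, 0.792 with the FDR limit and 0.802 for wild-type peaks under 3000 bp. The median RPKM ratio of 1.05 became 1.12 and 1.18 with the first 2 of these. It became 0.605 when the deposited tags were divided by the smaller of ChIP and control tags without scaling the tags themselves, which changes the divisor alone. With the tags scaled too, it stays at 1.05 by construction. The share with the higher mutant fold, 2.94%, became 8% with the FDR limit. Apart from the changes that the limits make by construction, the cause was not tested. The share at the higher coordinate stayed within its interval under every alternative run, with 49% without X, an alternative chosen after the data were seen. No paired analysis was possible because each genotype has a single joined list, and for the same reason leaving out a replicate was not an option. The files give no error for the position of a summit, and the part of the lower mutant depth in its placement was not tested.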

Other observations

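Outside the arms, on the heterochromatic scaffolds and the unplaced U and Uextra sequences, there were 254 1-to-1 pairs, of which 222 lay on Uextra. Summits were more than 200 bp apart in 44 of the 254, or 17.3% (Wilson 95% interval 13.2 to 22.5), with a median shift of 705.5 bp. The wild-type summit lay outside the mutant peak in 15 of these 44.

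A further 95 wild-type arm peaks each overlapped 2 or more mutant peaks and so could not enter the 1-to-1 pairs. They had a median length of 5344 bp. The summit of the mutant partner with the highest fold lay more than 200 bp from the wild-type summit in 44 of the 95, or 46.3% (36.6 to 56.3). In 21 of them (22.1%, 14.9 to 31.4) every mutant summit lay beyond that distance.

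Of the 238 shifted pairs, 14 (5.88%) had another shifted pair with its wild-type summit within 10 kb, in 7 groups of 2. Pairs within the limit were not counted as neighbours. Whether this is more or fewer than for other pairs was not tested.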
